A study of Mus musculus with 6 samples.

Results

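The kainate receptor genes Grik1 to Grik5 and the genes of their auxiliary subunits, Neto1 and Neto2, were examined in the hippocampus of young (3M) and aging (22M) mice. The members were chosen by gene name, and all 7 genes were found among the 13321 protein-coding genes of the deposited table, with 15 of its 25409 transcripts. Kainate receptors are ionotropic glutamate receptors, each a tetramer of GluK subunits. GluK1, GluK2 and GluK3 (Grik1 to Grik3) can form channels on their own, whereas GluK4 and GluK5 (Grik4 and Grik5) bind kainate with high affinity but conduct only together with GluK1 to GluK3. Neto1 and Neto2 are CUB-domain membrane proteins that bind these receptors and slow their currents, and Neto1 also associates with NMDA receptors. In the hippocampus, kainate receptors are known for their slow currents at the mossy fibre synapses from dentate granule cells onto CA3 pyramidal cells, for their presynaptic control of glutamate release, and for their presence on interneurons.

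All mice were male, wild-type C57BL/6 animals, an inbred laboratory strain, labelled young at 3M or aging at 22M, with no other allele or agent in these groups. There were 3 libraries per age, named J11, J13 and J15 for 3M and 72, 76 and 78 for 22M, and values are listed in this order. The labels do not say that each library came from a separate mouse, so each p-value reflects the spread of these libraries alone, which may be technical. The unit is FPKM, the number of fragments relative to transcript length and to the mapped fragments of the library, summed here over the transcripts of a gene. FPKM hold no counts and the depth of each library is unknown. Of all genes, 13041 averaged 0.5 FPKM or more over the 6 libraries and were tested with limma on log2(FPKM + 0.5), and all 7 members were among them. Fold changes are given on this scale, which understates changes of low values. A gene is said to have risen or fallen at an adjusted p under 0.05, with the limma p-values of all tested genes adjusted together. The thresholds of the study were a P below 0.05 without adjustment together with a log2 fold change of more than 0.585 in size.

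Markers of the hippocampal fields were present in every library. The summed FPKM of 6 dentate granule cell markers were 62.4 to 120 in 3M and 100.9 to 122 in 22M, those of 5 CA3 markers 49.4 to 72.8 and 50.4 to 54.8, and those of 4 CA1 markers 100.7 to 117 and 96.0 to 109. The library J11 stood apart from the rest, since its 6 striatal markers, such as the dopamine receptor gene Drd2, summed to 544 FPKM against 23.5 to 35.4 FPKM in the other 5 libraries, and its dentate granule cell markers were the lowest. Of the dentate markers 2 of 6 were higher in 22M at the thresholds of the study, and 0 were without J11. Of all genes tested, 4.08% were higher at these thresholds, or 4.47% without J11, and 8.3% were past them in either direction. By the adjusted p, 2.13% of all genes tested rose or fell. The 10 markers of thalamus and habenula summed to 53.4 to 117 FPKM in 3M and 23.3 to 27.7 FPKM in 22M, and 4 of the 9 tested fell, while Gbx2 was listed at 0 in J15, 72 and 78. The 6 oligodendrocyte markers summed to 1049 to 1120 FPKM in 3M and 634 to 816 FPKM in 22M, and 4 fell. The 4 choroid plexus markers summed to 130 FPKM in 78 and to 1131 to 2747 FPKM elsewhere. The 8 interneuron markers summed to 548 to 821 FPKM in 3M and 789 to 894 FPKM in 22M, and none was called by either threshold. The 4 astrocyte markers summed to 296 to 336 FPKM in 3M and 408 to 477 FPKM in 22M, and 0 rose. Of these, Gfap, Slc1a2 and Aqp4 had every 22M library above 3M, where 13.3% of all genes tested did. Aldh1l1 went the other way, from a mean of 11.8 to 7.33 FPKM, and was lower at the thresholds of the study. The 5 erythroid markers summed to 590 to 633 FPKM and 1329 to 2046 FPKM, and all 5 rose. In tissue RNA, fewer cells of a type and less RNA per cell cannot be told apart. The part of these tissue differences in the values below was not tested, and results that rest on J11 are given with and without it.

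The genes lie on different chromosomes of the build GRCm38 (GENCODE vM21). Grik2, the gene of the main mossy fibre subunit, is on the minus strand at chr10:49094833-49788766, and Grik3, whose product responds only to high glutamate concentrations, is on the plus strand at chr4:125490700-125714173. Neto2 is on the minus strand at chr8:85636588-85700924. Grik1 (chr16:87895900-88290265), Grik4 (chr9:42518135-42944493) and Grik5 (chr7:25009849-25072346) are on the minus strand. The exons of Neto1 overlap an antisense gene by 219 bases, those of Neto2 a microRNA gene on the opposite strand by 20 bases and those of Grik4 a small RNA gene on the same strand by 59 bases. The libraries were strand-specific, but the sources used here do not give whether strand was used in the quantification.

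The 250 bases upstream of the start are shown for Grik2 and Grik3, the receptor genes with the largest upward fold changes, and for both starts of Neto2, whose transcripts in the table begin at different starts. They come from RefSeq on GRCm38.p6, 5′ to 3′ on the strand of the gene, with GC boxes in capitals. A GC box is here the letters GGGCGG, searched on both strands, so that it also appears as CCGCCC.
Grik2, chr10:49788755-49789004: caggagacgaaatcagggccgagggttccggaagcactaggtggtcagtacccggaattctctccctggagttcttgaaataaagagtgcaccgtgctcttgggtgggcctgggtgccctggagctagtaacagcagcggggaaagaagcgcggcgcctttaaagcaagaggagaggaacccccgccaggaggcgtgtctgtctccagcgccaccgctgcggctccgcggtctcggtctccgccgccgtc
Grik3, chr4:125490446-125490695: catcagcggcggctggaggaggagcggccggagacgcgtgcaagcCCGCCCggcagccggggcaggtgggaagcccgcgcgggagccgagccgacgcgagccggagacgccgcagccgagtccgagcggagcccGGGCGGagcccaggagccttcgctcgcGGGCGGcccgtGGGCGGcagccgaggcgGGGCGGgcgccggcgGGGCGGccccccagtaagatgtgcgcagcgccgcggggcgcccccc
Neto2, upstream start, chr8:85700925-85701174: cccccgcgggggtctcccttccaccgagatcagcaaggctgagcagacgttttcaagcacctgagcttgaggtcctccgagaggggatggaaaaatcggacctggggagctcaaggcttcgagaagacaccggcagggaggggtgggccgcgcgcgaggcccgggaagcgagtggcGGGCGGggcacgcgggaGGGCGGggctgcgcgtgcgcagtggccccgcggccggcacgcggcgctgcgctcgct
Neto2, inner start, chr8:85691010-85691259: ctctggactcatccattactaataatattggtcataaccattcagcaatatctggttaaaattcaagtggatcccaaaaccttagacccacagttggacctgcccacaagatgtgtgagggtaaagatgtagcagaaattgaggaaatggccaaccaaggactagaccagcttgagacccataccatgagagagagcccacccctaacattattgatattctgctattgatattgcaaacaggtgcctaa
The Grik3 window held 6 GC boxes and 42 CpG dinucleotides, the Grik2 window 0 boxes and 20 CpG. The Grik2 window lies at the start of the transcript Grik2-207, at 49788766. The transcripts Grik2-202 and Grik2-204 begin elsewhere, at 49783259 and 49783409, and no window is shown for them. The upstream start of Neto2 held 2 boxes and 30 CpG, and the inner start, 9915 bases downstream, held 0 boxes and 0 CpG. Among 32851 promoters of the same length, 32.7% held a box, and the median was 6 CpG. A match is a description of the letters and not evidence of a bound site.

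The coding sequence around the Q/R site is shown because editing at this site lowers the calcium permeability of the channel, and it is a target of the editing enzymes described further on. It is the glutamine codon CAG in the pore loop, which adenosine deaminases can recode in GluK1 and GluK2 transcripts. The codon is in capitals, at the centre, from the GENCODE transcript with the most FPKM of each gene.
Grik1-209: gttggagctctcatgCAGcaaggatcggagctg
Grik2-207: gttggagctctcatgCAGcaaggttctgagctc
Grik3-201: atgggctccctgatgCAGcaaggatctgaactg
Grik4-202: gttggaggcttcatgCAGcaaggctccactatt
Grik5-201: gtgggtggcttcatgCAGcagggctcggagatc
The site was found by its amino acids, MQQGS, so a glutamine codon was fixed in advance, and all 5 reference sequences carry it as CAG. Part of the bases shared between the genes also follows from this search. Of the 33 bases, Grik1 shared 30 with Grik2, Grik3 and Grik5 shared 24, and Grik4 shared 23. FPKM values do not show how many transcripts were edited.

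In these libraries, Neto1 was the most abundant of the 7 genes and Grik5 the most abundant receptor subunit in both ages by mean FPKM. In 3M the means ran from 29.3 FPKM for Neto1 through 12.02 for Grik5, 7.95 for Neto2, 7.49 for Grik4, 5.06 for Grik2 and 4.63 for Grik3 to 3.71 for Grik1. In this order the libraries of Neto2 and Grik4, of Grik2 and Grik3, and of Grik3 and Grik1 overlapped, while the other neighbours were apart. In 22M the means ran from 40.5 FPKM for Neto1 through 12.1 for Grik5, 8.24 for Grik4, 7.27 for Neto2, 7.13 for Grik3 and 6.47 for Grik2 to 2.88 for Grik1. Here Neto1 was apart from Grik5 and Grik2 from Grik1, while the neighbours between them overlapped. Beyond neighbours, Grik5 and Grik4 each lay above Grik2 in all 22M libraries, and Neto2 and Grik3 were apart from none of these 3 genes.

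**Figure D1:**
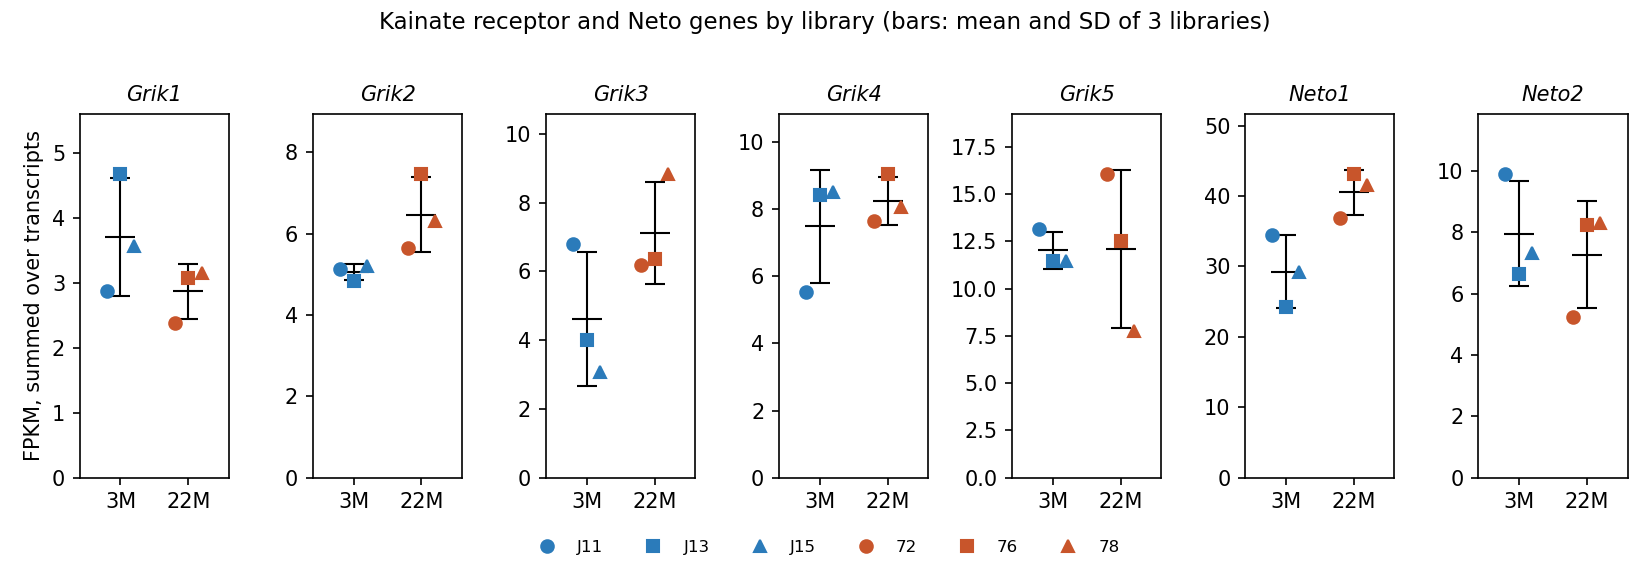
FPKM of each gene (vertical axis, summed over transcripts, a separate scale per gene starting at 0) in the 3 libraries of 3M (blue) and the 3 of 22M (red), with the mean and SD as bars. The 22M libraries lie above all 3M libraries for Grik2 and Neto1, while for Grik3 the 3M library J11, at 6.81 FPKM, lies among them.

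None of the 7 genes rose or fell with age (limma, adjusted p of 0.0995 to 0.921), where 2.13% of all genes tested were called. At the thresholds of the study 0 of 7 were higher or lower, against 8.3% of all genes. By limma, 2 of 7 had an unadjusted P under 0.05 (27% of all genes), and the same 2, Grik2 and Neto1, had all 22M libraries above all 3M libraries (13.3% of all genes). With 2 of 7 past the unadjusted P, the share of the members was near that of all genes. The fold change was above 0 for 4 genes and below 0 for 3, with a median of 0.15 on the log2 scale against -0.053 over all genes. By limma with array weights, which lets libraries count unequally, 1 of 7 rose, against 9.93% of all genes, and that gene was Neto1.

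Neto1, on the plus strand at chr18:86394952-86506718, had the smallest p of the family. Its levels were 34.5 (J11), 24.2 (J13) and 29.1 FPKM (J15), and 36.8 (72), 43.1 (76) and 41.6 FPKM (78). The ages did not overlap, though the highest 3M library, J11, came within a few FPKM of the lowest 22M library, 72. The mean was 29.3 ± 5.14 FPKM in 3M and 40.5 ± 3.26 FPKM in 22M (SD, n = 3 libraries each). The log2 fold change was 0.47 (SE 0.141, 95% interval 0.136 to 0.809, limma adjusted p = 0.0995), so Neto1 did not pass the adjusted test. Without J11 it was 0.60 (limma adjusted p = 0.107), which is past the thresholds of the study. With array weights it was 0.55 at an adjusted p of 0.0474, and under each alternative tried it stayed above 0, between 0.35 and 0.60. Since the ages did not overlap, the alternatives that left out libraries could not bring it below 0. With a correction of each library for the length and GC content of transcripts, the log2 fold change was 0.38. This used the length of Neto1-201 up to its deposited end, which is short of the annotated end.

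Neto2, the other auxiliary subunit gene, was at 9.89, 6.64 and 7.33 FPKM in 3M and at 5.25, 8.24 and 8.31 FPKM in 22M. J11 held the highest and 72 the lowest value, and the other 4 libraries lay between them with no order by age. The log2 fold change was -0.13 (SE 0.221, 95% interval -0.66 to 0.40, limma adjusted p = 0.735), and it turned to 0.028 without J11 and to 0.073 without 72. Neto1 exceeded Neto2 in every library. The ratio of Neto1 to Neto2 was 3.49, 3.65 and 3.97 in 3M and 7.01, 5.23 and 5.004 in 22M. The ratio was higher in each 22M library than in each 3M library, and a ratio within a library does not depend on how libraries are scaled. It went from 3.70 ± 0.249 to 5.75 ± 1.10 (SD, n = 3 libraries each; exact permutation p = 0.1, two-sided, which is the lowest value 3 against 3 can give, and p = 0.6 adjusted over 6 ratios). The test therefore could not pass 0.05.

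Among the subunits that form channels on their own, Grik2 and Grik3 had positive and Grik1 negative fold changes. Grik2 was at 5.13, 4.83 and 5.21 FPKM in 3M and at 5.65, 7.46 and 6.30 FPKM in 22M. The 3M libraries lay close together and below each 22M library. The mean went from 5.06 ± 0.203 to 6.47 ± 0.917 FPKM (SD, n = 3 libraries each). The log2 fold change was 0.32 (SE 0.131, 95% interval 0.0064 to 0.631, limma adjusted p = 0.178). After the correction of each library for length and GC content it was -0.060 (limma adjusted p = 0.834), so the direction of Grik2 depended on this step. Grik2 averaged 8219 bases and Grik3 had 8973, which placed both in length group 10 of 10, the longest genes, where the median log2 fold change was 0.31, with 176 genes higher and 6 lower at the thresholds of the study. Neto1, with 3531 bases up to its deposited end at 86501897, was in length group 7, with a median of 0.023. Its annotated end lies further on, at 86506718, and its group at the full annotated length was not examined.

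Grik3 was at 6.81 (J11), 4.01 (J13) and 3.06 FPKM (J15), and at 6.18, 6.37 and 8.83 FPKM in the 22M libraries. J11 lay within the 22M range, and J13 and J15 lay below all 22M libraries. The mean went from 4.63 ± 1.95 to 7.13 ± 1.48 FPKM (SD, n = 3 libraries each), with a log2 fold change of 0.62 (95% interval -0.051 to 1.30, SE 0.282, adjusted p = 0.213 by limma). J11, the high 3M library, was also the library with striatal markers, at 544 FPKM against 29.2 and 31.9 FPKM in J13 and J15. The 22M libraries, with Grik3 as high or higher, had 35.4 (72), 23.5 (76) and 23.8 FPKM (78) of these markers. A link between these markers and Grik3 was not tested. Without J11 the fold change was 0.91 (limma adjusted p = 0.114) and past the thresholds of the study, and without J11 and 78 it was 0.76 (limma adjusted p = 0.216). Leaving out J15 or 78 alone lowered it, to 0.39 (limma adjusted p = 0.382) and 0.47 (limma adjusted p = 0.431). Grik3 passed the thresholds of the study also with median-of-ratios scaling (0.67, limma adjusted p = 0.180) and with array weights (0.59, limma adjusted p = 0.153). With the length and GC correction it was 0.29. Without J11, 2 of 7 genes, Grik3 and Neto1, were thus higher at the thresholds of the study, against 4.47% of all genes, and 0 of 7 rose or fell, against 0.23%.

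**Figure D2:**
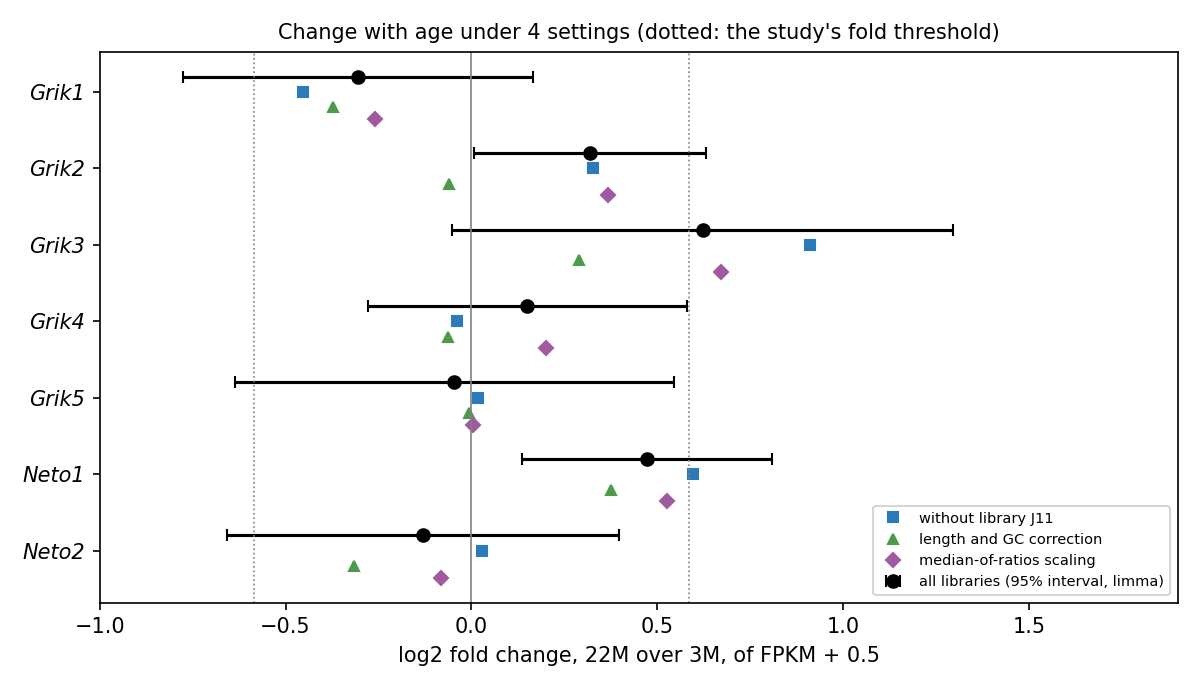
Log2 fold change of FPKM + 0.5, 22M over 3M (horizontal axis), for the 7 genes with all libraries (black, 95% interval from limma), without J11 (blue), with the length and GC correction (green) and with median-of-ratios scaling (purple). The dotted lines mark a log2 fold change of 0.585 in either direction. Grik2 moves from 0.32 to -0.060 with the correction, Grik3 reaches 0.91 without J11, and Neto1 stays between 0.38 and 0.60.

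Grik1, the subunit gene known for expression in interneurons, was at 2.88, 4.68 and 3.57 FPKM in 3M and at 2.39, 3.08 and 3.16 FPKM in 22M. The ages overlapped through J11, and the log2 fold change was -0.31 (SE 0.197, 95% interval -0.78 to 0.16, limma adjusted p = 0.359). It was below 0 under all 17 alternatives, from -0.51 to -0.039, and at -0.45 without J11. However, Grik1-201 and Grik1-202 are in the table through 3M alone, so the sum itself leans toward lower values in 22M. With the most abundant transcript alone, which leaves out these and Grik1-211, the log2 fold change was -0.039. The part of this lean in the shared sign was not tested. Grik4, which encodes a high-affinity subunit of CA3 and dentate neurons, was at 5.54, 8.42 and 8.49 FPKM in 3M and at 7.63, 9.03 and 8.06 FPKM in 22M. J11 was the low library and the other 5 overlapped, and the log2 fold change was 0.15 (SE 0.180, 95% interval -0.28 to 0.58, limma adjusted p = 0.624). Without J11 it was -0.039. Grik5, which encodes the other high-affinity subunit, was at 13.1, 11.5 and 11.5 FPKM in 3M and at 16.04, 12.5 and 7.74 FPKM in 22M. The 22M libraries held both the highest and the lowest value, and the mean was 12.02 ± 0.965 FPKM in 3M and 12.1 ± 4.17 FPKM in 22M (SD, n = 3 libraries each). The log2 fold change of Grik5 was -0.046 (95% interval -0.64 to 0.54, limma adjusted p = 0.921), and it was 0.23 without 78.

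As a pool, the FPKM of the 5 receptor genes summed to 33.5 in J11, 33.4 in J13 and 31.8 in J15, and to 37.9 in 72, 38.4 in 76 and 34.1 in 78. Each 22M sum was above each 3M sum, and 78, the library with the lowest Grik5, came closest to 3M. Among single genes tested, 13.3% had all 22M libraries above all 3M libraries. The sum was not tested and is given without the length and GC correction. In 3M, Grik5 took 36.5% ± 2.49 of this sum, Grik4 22.8% ± 5.49, Grik2 15.4% ± 0.9698, Grik3 13.98% ± 5.61 and Grik1 11.3% ± 2.70 (SD, n = 3 libraries). In 22M the shares were 32.5% ± 9.82 for Grik5, 22.4% ± 1.98 for Grik4, 17.6% ± 2.37 for Grik2, 19.6% ± 5.47 for Grik3 and 7.86% ± 1.49 for Grik1 (SD, n = 3 libraries). The libraries of the ages overlapped for each of the 5 shares. The largest share of a single library was that of Grik5 in 72, at 42.3%, and the same gene took 22.7% in 78.

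The ratio of high-affinity to channel-forming subunit genes, Grik4 and Grik5 over Grik1 to Grik3, was 1.26, 1.47 and 1.68 in 3M and 1.67, 1.27 and 0.864 in 22M. The ages overlapped, and 78 was the only library with less of Grik4 and Grik5 than of Grik1 to Grik3 (exact permutation p = 0.6). The ratio of both Neto genes to the receptor genes was 1.33, 0.924 and 1.15 in 3M and 1.11, 1.34 and 1.46 in 22M (exact permutation p = 0.4). Grik2 made up 0.154 ± 0.00970 of the receptor sum in 3M and 0.176 ± 0.0237 in 22M (SD, n = 3 libraries each; exact permutation p = 0.3). Beside the other glutamate receptors, the kainate receptor genes were a minor part. Their sum was 0.152 ± 0.0296 of that of Gria1 to Gria4, the AMPA receptor subunits, in 3M and 0.145 ± 0.0240 in 22M (SD, n = 3 libraries each; exact permutation p = 0.8). It was 0.340 ± 0.0417 of that of 6 NMDA receptor subunit genes in 3M and 0.306 ± 0.0328 in 22M (SD, n = 3 libraries each; exact permutation p = 0.4). Adjusted over the 6 ratios, p was 0.6 to 0.8.

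**Figure D3:**
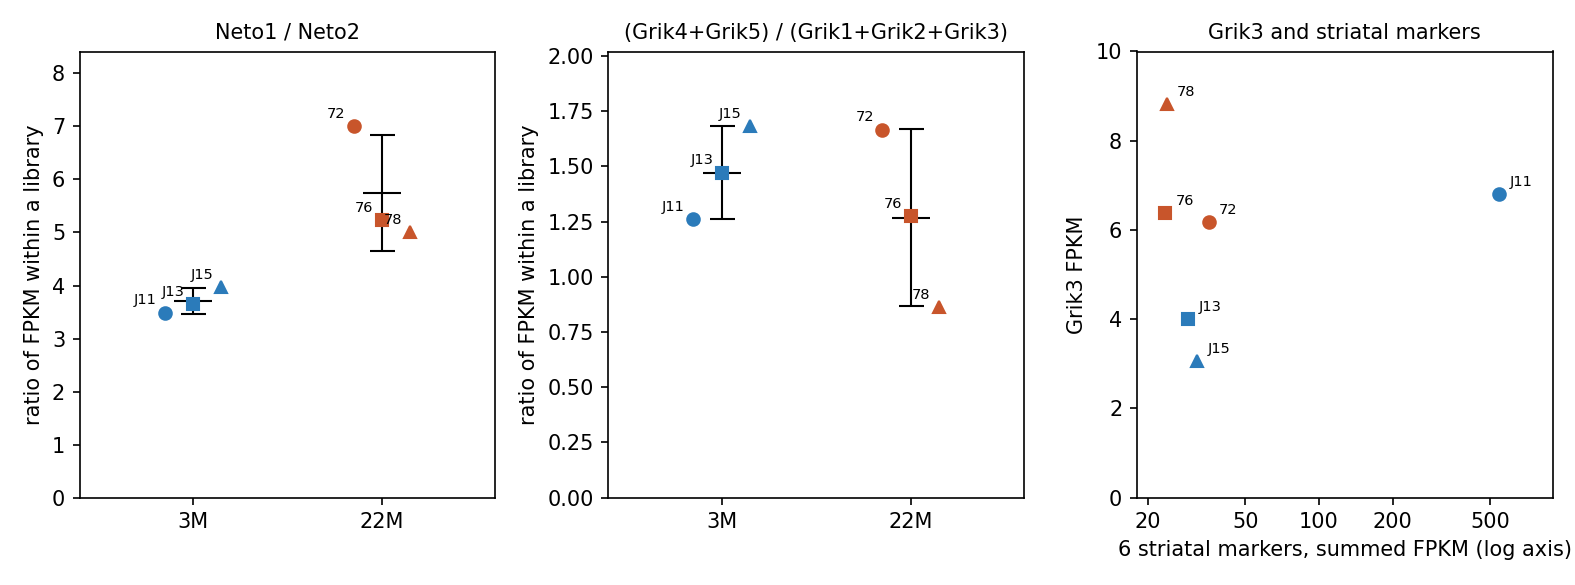
Left and centre, ratios of FPKM within each library (vertical axes from 0) for Neto1 over Neto2 and for Grik4 and Grik5 over Grik1 to Grik3, with library names, mean and SD. Right, FPKM of Grik3 against the summed FPKM of 6 striatal markers (log axis) in the same 6 libraries. The Neto1 to Neto2 ratio is 3.49 to 3.97 in 3M and 5.004 to 7.01 in 22M, and J11 stands apart at 544 FPKM of striatal markers with 6.81 FPKM of Grik3. The highest Grik3 value, 8.83 FPKM, is in 78, at 23.8 FPKM of striatal markers.

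By transcript, 11 of the 15 averaged 0.5 FPKM or more and were tested, and 0 of 11 rose or fell (limma, adjusted over all transcripts), where 0.207% of all transcripts did. At an unadjusted P under 0.05 there were 2 of 11 (17.3% of all transcripts), Grik2-207 and Neto1-201. At the thresholds of the study 1 of 11, Grik2-207, was higher (5.03% of all transcripts), and 2 of 11 had 22M libraries above all 3M libraries (11.5% of all transcripts). Grik3, Grik5 and Neto1 had 1 transcript each in the table, so their values are those of the gene. The FPKM of overlapping transcripts are divided between them by estimation, so single transcripts are less certain than the sum. A transcript is in the table where its mean reached 0.5 FPKM in at least 1 age, and of the 15 this held in 3M alone for 4 (Grik1-201, Grik1-202, Grik2-202 and Grik2-204) and in 22M alone for 2 (Grik4-201 and Neto2-201).

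Grik2-207, the longest Grik2 transcript, was at 3.16, 2.11 and 4.55 FPKM in 3M and at 5.26, 6.67 and 5.83 FPKM in 22M. Each 22M library was above each 3M library, and the log2 fold change was 0.81 (SE 0.268, limma adjusted p = 0.218). Leaving out 1 library gave 0.57 (without J13) to 1.05 (without J15), and the thresholds of the study were not passed without J11, J13, 76 or 78. Grik2-202, which has the same coding exons but 3992 bases in place of 9427, was at 0.648, 1.88 and 0.0828 FPKM in 3M and at 0.0603, 0.0916 and 0.111 FPKM in 22M. J13 and J11 were high and J15 was as low as the 22M libraries, so the 3M libraries did not behave alike. Grik2-204, with 2607 coding bases in place of 2724, was at 1.32, 0.835 and 0.583 FPKM in 3M and at 0.330, 0.693 and 0.358 FPKM in 22M (limma adjusted p = 0.406). The share of Grik2-207 in the gene was 61.6%, 43.7% and 87.2% in 3M and 93.1%, 89.5% and 92.6% in 22M. The ages did not overlap, but J15 was close to the 22M libraries, and the mean share was 64.2% ± 21.9 in 3M and 91.7% ± 1.95 in 22M (SD, n = 3 libraries each). The difference of 27.5 percentage points was 17.3 without J13 and 39.0 without J15. The length and GC correction, which moved the Grik2 gene from 0.32 to -0.060, was not run for single transcripts or their shares. The effect of the correction on the fold change of Grik2-207 and on this difference was therefore not examined. The remainder of the gene is Grik2-202 and Grik2-204, which are in the table through 3M, where they were high, so the table itself leans toward a higher share of Grik2-207 in 22M and no test is given.

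Neto2 had 3 transcripts, and most of its FPKM were in Neto2-203, which begins near the upstream start shown above. Neto2-203 was at 8.06, 5.80 and 6.11 FPKM in 3M and at 3.97, 6.50 and 6.42 FPKM in 22M. Its share of the gene was 81.5%, 87.3% and 83.4% in 3M and 75.5%, 78.9% and 77.3% in 22M. The mean share was 84.1% ± 2.98 in 3M and 77.2% ± 1.69 in 22M (SD, n = 3 libraries each), with no overlap, but this rested on Neto2-201, which is in the table through 22M alone, and no test is given. With Neto2-201 left out of the gene, an alternative chosen after seeing the data, the share of Neto2-203 was 75.5%, 87.3% and 85.4% in 22M, and the ages overlapped. Neto2-201, which begins near the inner start without CpG dinucleotides, was listed at 0 in J11, J13, J15 and 72 and at 0.793 and 0.794 FPKM in 76 and 78. It was below the mean needed for the test, and a value listed at 0 can be a failed estimate. Neto2-205, with the remaining FPKM, was at 1.83, 0.839 and 1.22 FPKM in 3M and at 1.29, 0.946 and 1.10 FPKM in 22M (limma adjusted p = 0.843).

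Grik4-202, with 89.2% to 97.6% of the FPKM of Grik4 over the 6 libraries, was at 5.24, 8.23 and 7.69 FPKM in 3M and at 7.34, 8.56 and 7.18 FPKM in 22M (limma adjusted p = 0.751). Its partner Grik4-201 has the same coding exons and was at 0.199 to 0.801 FPKM in 3M and at 0.286 to 0.870 FPKM in 22M. The share of Grik4-202 overlapped between the ages (exact permutation p = 0.8). Grik1 was spread over 4 transcripts. Grik1-209 was at 1.70, 1.23 and 1.39 FPKM in 3M and at 1.02, 1.66 and 1.53 FPKM in 22M (limma adjusted p = 0.950). Grik1-211 was at 0.184, 1.61 and 1.46 FPKM in 3M and at 1.25, 0.338 and 0.272 FPKM in 22M (limma adjusted p = 0.728). J13, J15 and 72 were thus high in Grik1-211 and J11, 76 and 78 low, a split that crossed the ages. Grik1-201 was listed at 0 in 72 and at 0.422 to 1.10 FPKM in the other 5 libraries (limma adjusted p = 0.672), and Grik1-202 was at 0.125 to 0.744 FPKM over all 6 and was not tested.

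**Figure D4:**
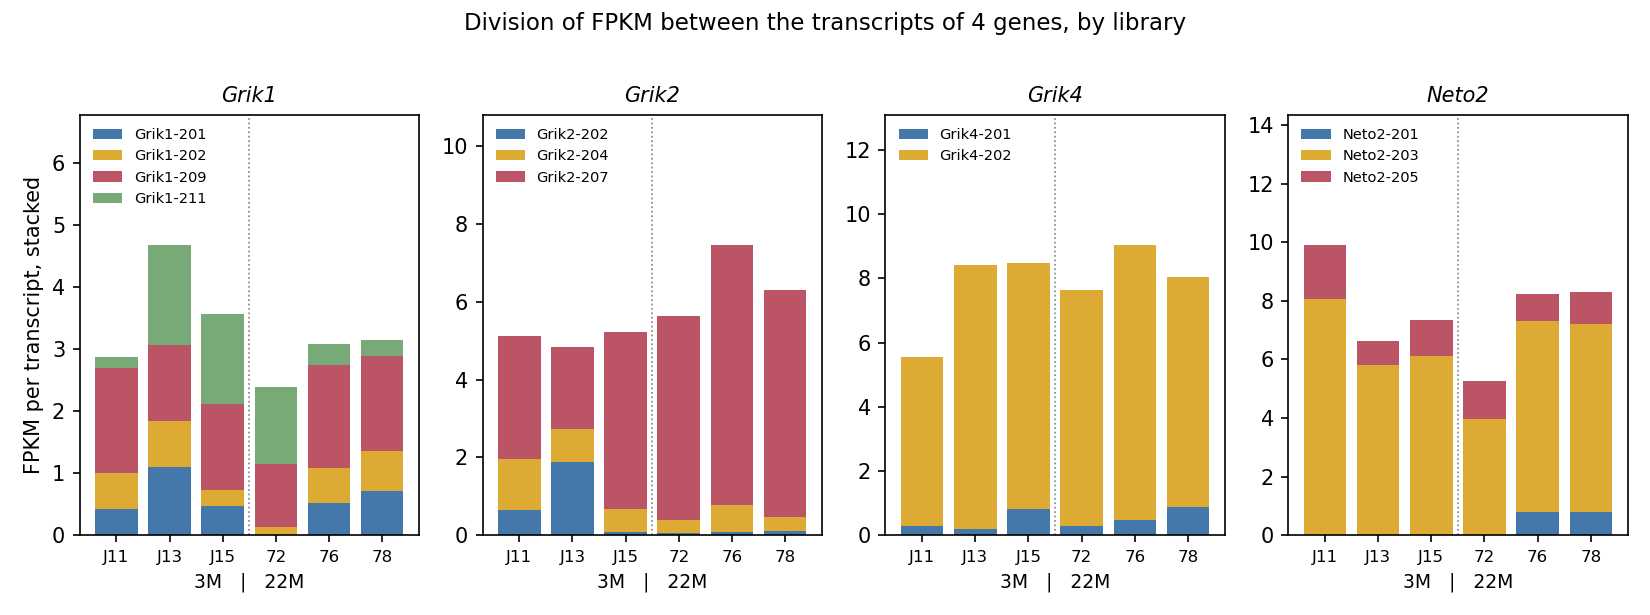
FPKM of the transcripts of Grik1, Grik2, Grik4 and Neto2 stacked for each library (vertical axis from 0, a separate scale per gene), with the 3M libraries left and the 22M libraries right of the dotted line. Grik2-207 makes up 43.7% to 87.2% of Grik2 in 3M and 89.5% to 93.1% in 22M, and Neto2-201 appears in 76 and 78 alone.

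Of 19 genes of trafficking and scaffold partners of kainate receptors, 18 were tested and 0 rose or fell by limma. At an unadjusted P under 0.05 there were 7 of 18, against 27% of all genes, and at the thresholds of the study 1 was lower (8.3% of all genes were past them in either direction), Ctnnb1, which encodes beta-catenin, a link between cadherins and these receptors. Ctnnb1 was at 35.4, 48.9 and 24.5 FPKM in 3M and at 15.9, 6.50 and 7.17 FPKM in 22M. Each 22M library was below each 3M library, and the log2 fold change was -1.88 (SE 0.380, limma adjusted p = 0.0558). The median of the list was 0.081 against -0.053 over all genes, and -0.036 without J11. Without J11, Dlg1, a membrane-associated scaffold gene, was also past the thresholds of the study, in the higher direction. Klhl17 was not analysed here. Of the 3 extracellular partners, 0 rose or fell by limma, 1 had an unadjusted P under 0.05 (27% of all genes), and the median was 0.14, or -0.14 without J11. Nrxn3, whose neurexin binds C1q-like proteins at mossy fibre synapses, was at 35.0, 30.8 and 31.2 FPKM in 3M and at 26.7, 28.2 and 28.5 FPKM in 22M (log2 fold change -0.21, SE 0.0851, limma adjusted p = 0.169). C1ql3, the gene of such a C1q-like protein, was at 42.2, 53.4 and 43.6 FPKM in 3M and at 46.5, 57.3 and 56.1 FPKM in 22M (limma adjusted p = 0.356).

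Of the 3 genes of the pre-mRNA editing family, 0 rose or fell by limma and 1 had an unadjusted P under 0.05, near the 27% of all genes. That gene was Adar, which encodes an editing enzyme. The values do not show which enzyme of the family acts on the codon shown above. Adar was at 16.6, 14.1 and 14.3 FPKM in 3M and at 19.3, 21.6 and 23.8 FPKM in 22M. All 22M libraries were higher, and the log2 fold change was 0.51 (SE 0.114, 95% interval 0.236 to 0.780, limma adjusted p = 0.0622). Adarb1, which encodes the editing enzyme ADAR2, was at 1.62, 1.18 and 1.71 FPKM in 3M and at 2.00, 1.598 and 1.81 FPKM in 22M, and the ages overlapped (log2 fold change 0.21, limma adjusted p = 0.469). The median of the list was 0.21, and -0.038 with the length and GC correction.

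The AMPA and NMDA receptor families gave 0 genes that rose or fell by limma. Of 4 AMPA receptor subunit genes, 1 had an unadjusted P under 0.05, near the 27% of all genes, and was higher at the thresholds of the study (4.08% of all genes). It was Gria3, at 3.99, 3.48 and 5.98 FPKM in 3M and at 5.81, 8.60 and 9.84 FPKM in 22M (log2 fold change 0.79, SE 0.252, limma adjusted p = 0.114), with J15 above 72. Without J11, Gria3 was no longer past those thresholds. Of 6 NMDA receptor subunit genes tested, 2 had an unadjusted P under 0.05, where 27% of all genes did, and 1 was higher at those thresholds. It was Grin2a, at 11.1, 15.5 and 23.9 FPKM in 3M and at 24.9, 31.7 and 32.3 FPKM in 22M (log2 fold change 0.86, SE 0.267, limma adjusted p = 0.110). J11 was the lowest library, and J15 came near the lowest 22M library. Grin3b was not analysed here. The median log2 fold change was 0.27 for the AMPA list and 0.14 for the NMDA list. With the length and GC correction these medians were 0.054 and -0.16.

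Of 4 genes of vesicular glutamate and zinc transporters, which load the vesicles of excitatory terminals, 0 rose or fell by limma, 0 had an unadjusted P under 0.05, and the median was -0.079. Slc17a6, the vesicular transporter of many thalamic neurons and a member of the thalamic marker list, was at 6.55, 15.4 and 8.89 FPKM in 3M and at 7.81, 5.64 and 7.96 FPKM in 22M (limma adjusted p = 0.400). Without J11, which was its lowest 3M library, it was lower in 22M at the thresholds of the study. Slc17a8 was at 0.875 to 1.53 FPKM in 3M and 0.893 to 0.949 FPKM in 22M, with a limma adjusted p of 0.547.

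The genes whose log2 values varied most like those of Neto1 over the 6 libraries, after centring each gene on its mean, were Dlg2 and Kdm5c, among the 12064 genes other than the 7 members that averaged 1 FPKM or more. The root mean square difference was 0.0488 for Dlg2, the gene of the synaptic scaffold PSD-93, and 0.0495 for Kdm5c, the gene of a histone demethylase. Dlg2 was at 40.8, 29.0 and 34.7 FPKM in 3M and at 42.0, 46.8 and 49.3 FPKM in 22M. Kdm5c was at 8.42, 5.91 and 7.60 FPKM in 3M and at 9.22, 10.52 and 9.76 FPKM in 22M. In both, as in Neto1, J11 was the highest and J13 the lowest 3M library, and 72 was the lowest 22M library. The likeness is a description over 6 libraries of the same table, and Neto1 was both the member with the highest mean and the one with the smallest p.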

How the data were processed

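Polyadenylated RNA of male 3M and 22M hippocampus was sequenced by the authors from strand-specific libraries, and FPKM were deposited for each transcript. The submitters' processing notes name HISAT2 and GRCm38 (mm10). The quantifier and the annotation release were not given in the sources used here. Each deposited transcript averaged 0.5 FPKM or more in 1 age or both. FPKM hold no counts, so the depth is unknown and no counting error could be given.

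FPKM were summed per gene, and genes or transcripts averaging 0.5 FPKM or more (13041 and 23637) were analysed on R 4.3.3 by limma 3.58.1 on log2(FPKM + 0.5), two-sided, with a variance trend and Benjamini-Hochberg adjustment over all of them. For ratios and transcript shares, exact permutation tests (two-sided) were used. Lengths and GC content came from GENCODE vM21, which held 99.7% of the transcript identifiers regardless of version and 94.8% in the same version. Neto1-201 was found under another version and was used up to its deposited end. Alternatives were limma without trend or with array weights, other pseudocounts, other filters on low values, scaling by quantiles or by the median of ratios, a correction of each library for length and GC content (natural splines, 4 degrees of freedom), the most abundant transcript alone and leaving out libraries. The correction for length and GC content was not run for single transcripts or transcript shares. Partner lists without J11 and the share of Neto2-203 without Neto2-201 were added after seeing the data. The result of 1 partner list is not reported here.

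The members, lists and tests were chosen with earlier results of these data known. Named were the members with their transcripts, the list genes past either threshold or otherwise up to 2 with the smallest p, and the 2 genes most similar to the member with the highest mean or the smallest p. On data simulated for 3M against 22M, the gene test called 70% of 100 genes with a log2 change of 1, 94% of 100 with a change of 2 and 6 of 12841 unchanged genes. The transcript test called 12% of 100 transcripts with a change of 1, 43% of 100 with a change of 2 and 5 of 23437 unchanged ones, so it misses most changes of this size.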

Additional observations from a re-analysis of the deposited data

How the results depend on the processing

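Of 119 gene and 110 transcript fold changes recomputed under the alternatives, 107 and 104 kept their direction and their side of the adjusted p. No member passed the adjusted p with all libraries, and some alternatives called few genes of the whole table, such as 2 without 76. Keeping the side of the adjusted p was therefore likely in advance and says little about stability. For 73 ratios and transcript shares, whose exact permutation p cannot go below 0.1 (0.2 with a library left out), direction alone could be compared, and 65 kept it. These include the shares of Grik2-207 and Neto2-203, which lean on transcripts that are in the table through a single age. The kept direction of these shares therefore does not show that they withstand the processing. Among the gene values, 1 passed the adjusted p, Neto1 with array weights (0.55, adjusted p = 0.0474), so that 1 member rose there. With the length and GC correction Grik2 was at -0.060 and Grik4 at -0.063, and the share of Grik2 among the receptor genes changed by -0.049 on the log2 scale. Leaving out 1 library gave 0.22 to 0.40 for Grik2, 0.39 to 0.91 for Grik3, 0.35 to 0.60 for Neto1, -0.039 to 0.25 for Grik4, -0.27 to 0.23 for Grik5 (0.017 without J11) and -0.24 to 0.073 for Neto2 (0.028 without J11). Grik4 was at -0.025 without J11 and 78 together, and Grik5 at 0.29 there, at 0.0055 with median-of-ratios scaling and at 0.016 with array weights. The cause was not tested. Single transcripts went from -0.14 to 0.12 for Grik1-209 (0.057 without J11), -0.048 to 0.25 for Grik4-202, -0.27 to 0.23 for Grik5-201 and -0.32 to 0.079 for Neto2-205 when 1 library was left out.

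The number of genes past the thresholds of the study was 0 in all, 0 to 2 leaving out 1 library (2 without J11, Grik3 and Neto1), and 1 with median-of-ratios scaling, with array weights, without J11 and 78 (each Grik3) and by the most abundant transcript alone (Grik2). The number of transcripts was 1 in all and 0 to 2 leaving out 1 library. Leaving out 1 library, the log2 ratio of kainate to AMPA receptor genes went from -0.22 to 0.064 (0.042 without 78), the difference in the share of Grik1-209 from -0.74 to 15.7 percentage points and that of Grik4-202 from -2.70 to 1.27 points (0.833 without J13). The log2 ratio of kainate to AMPA receptor genes was 0.054 by the most abundant transcript and 0.029 with the correction, against -0.065 as reported. The ratio of Neto1 to Neto2 stayed higher in 22M under each of 8 alternatives, by 0.47 to 0.74 on the log2 scale. Most of these left out 1 library, which could not reverse a ratio that did not overlap between the ages. Only the length and GC correction (0.72) and the most abundant transcript alone (0.74) could have done so. List medians with the correction were -0.038 for editing enzymes, 0.054 for AMPA and -0.16 for NMDA receptors. With median-of-ratios scaling the NMDA median was 0.19, and without J11, an alternative chosen after seeing the data, the medians of trafficking and of extracellular partners were -0.036 and -0.14.

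Over all genes, 278 rose or fell with all libraries, 1295 with array weights, 37 without trend, 39 with the correction, and 2 to 546 leaving out 1 library. At the thresholds of the study 532 genes were higher and 550 lower, and with median-of-ratios scaling 638 and 432, while quantile normalization gave 613 and 438. No paired analysis was possible because the library names share no replicate number between the ages. With 3 libraries per age, no counts and an unknown depth, precision rests on the spread between libraries.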
